A study of Mus musculus with 4 samples.

Results

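Small leucine-rich proteoglycans are secreted matrix proteins built on a core of leucine-rich repeats, and many of them carry chondroitin, dermatan or keratan sulfate chains. They bind fibrillar collagens, influence how fibrils assemble and are spaced, and several also bind growth factors such as TGF-β. In the early embryonic heart the space between muscle and endocardium is filled with cardiac jelly, a matrix rich in hyaluronan and versican, and collagen-rich valve tissue forms from it later.

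The genes described are Lum (lumican), Dcn (decorin), Bgn (biglycan), Fmod (fibromodulin), Ogn (osteoglycin), Omd (osteomodulin), Prelp, Aspn (asporin), Kera (keratocan) and Epyc (epiphycan), which are 10 of 30139 gene names on the array, each measured by 1 probe. The set was chosen by the ratios of Lum, which had the lowest mean among probes that read lower on all 4 arrays. The members' ratios on these arrays are therefore given as a description, with no test of a member. Of the 10 probes, 4 were well above background, those of Lum, Dcn, Bgn and Fmod, and the other 6 were not well above background in any channel.

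RNA came from microdissected mouse hearts at embryonic day 9.5. The mutant embryos had the genotype Nkx2.5Cre; Hdac3f/f, in which Cre expressed from Nkx2-5, a gene of cardiac progenitors, acts on floxed Hdac3, the gene of a class I histone deacetylase. The control embryos were Hdac3f/f littermates with no stated Cre, and both carried the floxed allele on a mixed CD1/B6/129 background. Since Nkx2.5Cre was present in mutants alone, its effect and that of Hdac3 deletion cannot be told apart. Each of the 4 two-colour arrays compared a pool of 3 mutant hearts with a pool of 3 control hearts, so each value rests on n = 4 pairs of pools.

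Some statements in the labels are in conflict, and they bear on every value below. The labels place mutant RNA in Cy5 on all arrays. The authors' deposited log2 ratios, in columns named mutant over wild type, ran with Cy5 over Cy3 on arrays 1 and 2 (slopes of 1.01 and 1.01 where both dyes were bright), and the opposite way on arrays 3 and 4 (slopes of -1.01 and -1.01). Read as deposited, arrays 1 and 4 had a correlation of -0.302 over all probes tested, arrays 2 and 4 one of -0.12, arrays 1 and 3 one of 0.0862 and arrays 2 and 3 one of 0.0327. Arrays 1 and 2 had one of 0.538 and arrays 3 and 4 one of 0.421. The direction is therefore not settled. Mutant and control values below follow the names of the deposited columns unless the reading by labels is named. Control signals of some genes were close within arrays 1 and 2 and within arrays 3 and 4. Control Dcn read 2533.3 and 2585.3, then 931.0 and 998.9, and control Prl8a2, a trophoblast gene, 4461.8 and 4872.2, then 858.3 and 852.4. Control Bgn read 89.5 and 53.2 on arrays 3 and 4. Whether the 4 control pools were independent was not tested, so n = 4 counts arrays. In replicates 2, 3 and 4 the description field speaks of embryonic stem cells, whereas every other label of these samples speaks of hearts. The cardiac muscle genes fixed as markers, such as Actc1 and Tnnt2, were well above background in every channel, with 10 of 10 tested. Among 8 markers of embryonic stem cells, 5 were also well above background in every channel, namely Nanog, Utf1, Esrrb, Dppa5a and Zfp42. Pou5f1, Sox2 and Dppa4 were not tested because of low signal.

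Each array held 44397 spots, of which 1377 were controls. Over the 39429 non-control probes, the share well above background was 66.6% to 71.2% in mutant channels and 66.6% to 69.6% in control channels. The Hdac3 probe had log2 ratios of -0.22, -0.50, -0.52 and -1.15, a mean of -0.60 ± 0.39 (SD, n = 4), and 0.24 with all arrays read as labelled. Whether this probe lies in the deleted part of the gene is not known here, and a probe outside it would not check the deletion. Across the 25467 probes tested, limma with Benjamini-Hochberg adjustment called 0 higher (0.0%) and 0 lower (0.0%) at a threshold of 0.05, with 0.326 as the lowest adjusted p. Without adjustment, 930 were higher (3.65%) and 1243 lower (4.88%) at the same threshold. With arrays 3 and 4 turned to the labelled dyes, 12 probes were called higher and 0 lower after adjustment.

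The first 30 bases of the 60-base array probes of the 4 detected members are shown, since each level below is read from a single such sequence. They are written 5′ to 3′ in lower case with nothing marked, and positions are those of the array files in mm9.

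Lum: taagcatttgcacggttacttagtgaaact

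Fmod: ggcaagcgtggttttcaaaacatgagaaag

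Dcn: aacaccttcagatgtgtctatgtgcgttct

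Bgn: caatcagattcggatgattgagaatgggag

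The Lum probe maps to chr10:97035210-97035269 on the plus strand, the Dcn probe to chr10:96980233-96980292, the Fmod probe to chr1:135943998-135944057 and the Bgn probe to chrX:70738554-70738613, all on the plus strand. Whether these positions lie in coding sequence or in an untranslated region was not analysed here. The longest run that each full probe shared with a probe of another gene on the array was 14 bases for Lum, Dcn and Bgn and 13 bases for Fmod. Their G and C content was 36.7% for Lum, 43.3% for Dcn, 48.3% for Bgn and 45.0% for Fmod.

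The members sit in clusters. On chromosome 10 the probes of Dcn, Lum, Kera and Epyc lie in that order within 163792 bases. On chromosome 13 the probes of Aspn, Omd and Ogn lie within 57130 bases, on chromosome 1 those of Prelp and Fmod lie within 137203 bases, and Bgn is alone on the X chromosome.

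Lum encodes lumican, a keratan sulfate proteoglycan best known from the cornea, where it takes part in the spacing of collagen fibrils. Its processed signal, in the arbitrary units of the scanner software, was 56.0, 66.6, 60.8 and 99.5 in the mutant pools of arrays 1 to 4, against 153.4, 165.3, 180.4 and 198.2 in the control pools. Every mutant pool lay below every control pool, the highest mutant value being 99.5 and the lowest control value 153.4. The means were 70.7 ± 19.6 in mutant pools and 174.4 ± 19.4 in control pools (SD, n = 4 each). Over all probes tested, 58 had all mutant signals below all control signals (0.228%), and the choice of Lum on these arrays means that nothing follows from its place among them.

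The deposited log2 ratios of Lum were -1.17, -1.11, -1.22 and -0.84, a mean of -1.09 ± 0.17 (SD, n = 4), or a linear ratio of 0.472. All 4 arrays read below 0, as 2601 probes did (10.2%), and Lum was the only probe with a mean of -1 or lower (1 probe, 0.00393%). The mean was -1.14 on arrays 1 and 2 and -1.03 on arrays 3 and 4, so the ratio was of like size where the columns ran with and against Cy5 over Cy3. The ratio of processed signals was further from 1 than the deposited ratio, with the mutant at 0.365, 0.403, 0.337 and 0.502 of the control.

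This direction depends on how arrays 3 and 4 are read. With mutant RNA in Cy5 throughout, the Lum ratios became -1.17, -1.11, 1.22 and 0.84, their mean -0.05, and its rank from the lowest mean was 9056 of 25467 probes, against 1 as deposited. On that reading the mutant and control signals of Lum overlapped, and 175 probes had all mutant signals below all control signals (0.687%). On the labelled reading 3361 probes were below 0 on all arrays (13.2%) and 9 had a mean of -1 or lower (0.0353%).

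**Figure D1:**
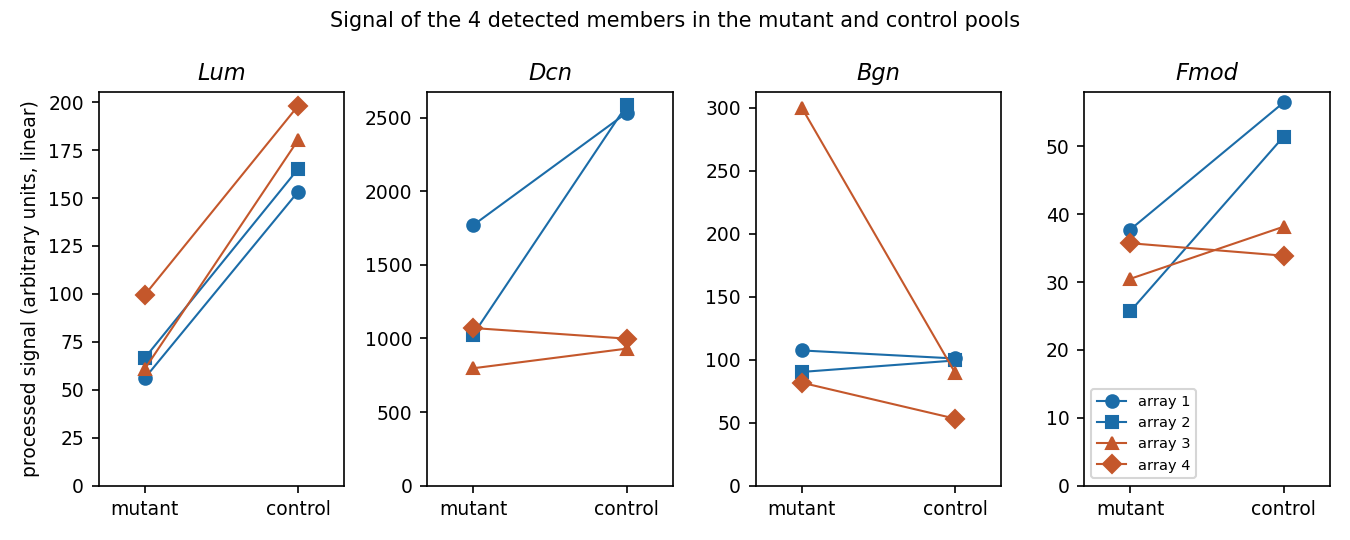
Processed signal (arbitrary units, linear axis from 0) of Lum, Dcn, Bgn and Fmod in the mutant and control pool of each array, joined by a line per array, with the pools assigned by the deposited columns. All 4 Lum lines lie higher on the control side, the 2 steep Dcn lines belong to arrays 1 and 2, and the mutant Bgn signal of 300.3 belongs to array 3.

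Fmod encodes fibromodulin, a close relative of lumican that binds fibrillar collagen and is abundant in tendon. Its signal was 37.7, 25.7, 30.5 and 35.7 in mutant pools, against 56.5, 51.4, 38.2 and 33.9 in control pools. The groups overlapped because the control pool of array 4 read below the mutant pools of arrays 1 and 4. The log2 ratios were -0.39, -0.65, -0.19 and 0.02, a mean of -0.30 ± 0.29 (SD, n = 4), which placed Fmod at rank 1015 from the lowest. The mean was -0.18 without array 2 and -0.16 after normexp and loess of the scanner intensities. As labelled, the mean was -0.22 and the rank 2135.

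Dcn encodes decorin, a dermatan or chondroitin sulfate proteoglycan that binds collagen fibrils and TGF-β, and it neighbours Lum on chromosome 10. Its signal was 1769.8, 1026.8, 797.7 and 1071.0 in mutant pools, against 2533.3, 2585.3, 931.0 and 998.9 in control pools. Both control pools of arrays 1 and 2 stood above all mutant pools, while those of arrays 3 and 4 lay within the mutant range. The log2 ratios were -0.55, -1.33, -0.23 and 0.07, with a mean of -0.51 ± 0.60 (SD, n = 4).

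The mean of Dcn came mainly from arrays 1 and 2, where it was -0.94, against -0.08 on arrays 3 and 4. Without array 2 the mean was -0.24. Dcn held rank 101 from the lowest mean as deposited and rank 298 as labelled, with a labelled mean of -0.43. The SD of Dcn exceeded the size of its mean.

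Bgn encodes biglycan, the closest relative of decorin, which binds collagen and, in soluble form, acts on the receptors Tlr2 and Tlr4. Its signal was 107.4, 90.3, 300.3 and 81.8 in mutant pools, against 101.0, 99.4, 89.5 and 53.2 in control pools. The mutant pool of array 3 stood far above the other pools, and the groups overlapped, while 0.161% of all probes had every mutant signal above every control signal (0.51% as labelled). The log2 ratios were 0.03, -0.12, 1.38 and 0.41, with a mean of 0.42 ± 0.68 (SD, n = 4). The mean was 0.10 without array 3 and -0.05 on arrays 1 and 2. As labelled, the mean was -0.47, so the sign of Bgn turned with the reading, and its rank from the lowest mean was 25076 as deposited and 206 as labelled.

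**Figure D2:**
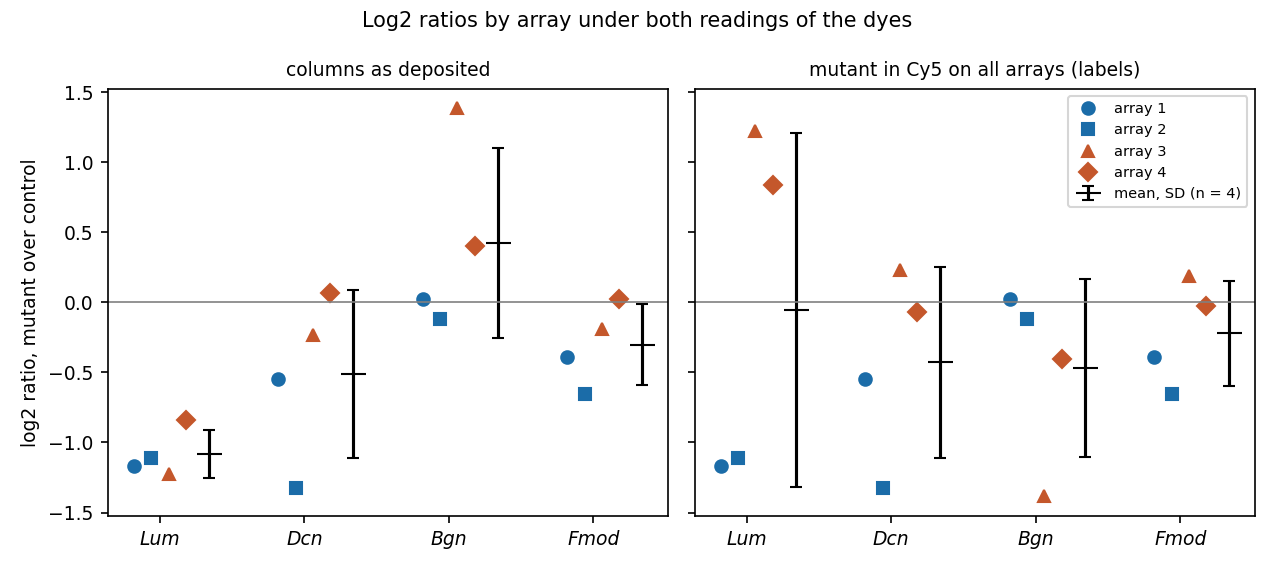
Log2 ratios of the 4 detected members on each array, with the mean and SD (n = 4) beside them, as deposited (left) and with mutant RNA in Cy5 on all arrays (right). Lum lies between -1.22 and -0.84 in the left panel and splits to both sides of 0 in the right panel.

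The other 6 members were not well above background in any of the 8 channels, so no fold is given for them. Their signals lay between 1.33 and 11.2. Aspn encodes asporin, of the decorin class, which binds collagen and TGF-β. Kera encodes keratocan of the cornea, Prelp a protein that binds collagen and heparan sulfate, and Omd osteomodulin of bone. Ogn encodes osteoglycin and Epyc encodes epiphycan, found in cartilage.

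Among these 6, Ogn reached the highest signals. They were 2.66, 2.53, 3.24 and 3.03 in mutant pools, against 10.1, 11.2, 3.77 and 2.74 in control pools. The control pools of arrays 1 and 2 were the higher ones, and none of these values was well above background. Kera, which was spotted 10 times per array, had mean signals of 1.92 to 2.52 in mutant pools and 1.78 to 2.87 in control pools.

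**Figure D3:**
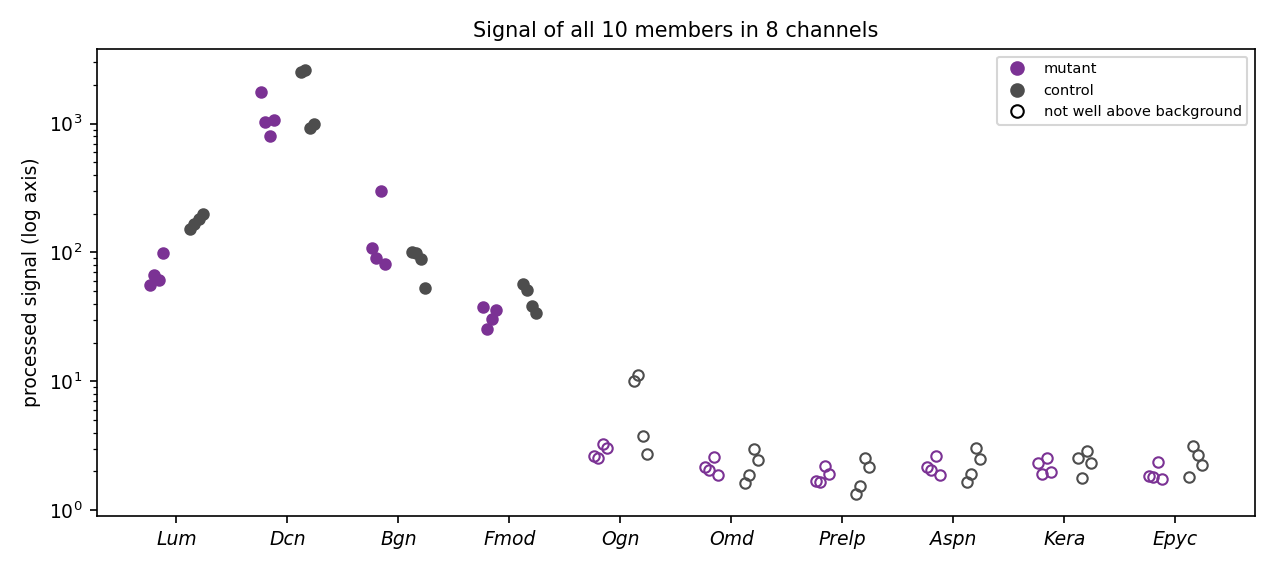
Processed signal (log axis) of all 10 members in the 4 mutant and 4 control channels, with open symbols for values not well above background. Filled symbols appear for Lum, Dcn, Bgn and Fmod alone, and all values of the other 6 members lie at or below 11.2.

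Among the 4 members tested, 3 had a mean below 0, beside 46.5% of all genes tested. On all 4 arrays 1 member was lower and 0 were higher, where 10.2% of all probes were lower and 9.64% higher. As labelled, all 4 means were below 0, and 0 members were lower and 0 higher on all arrays, where 13.2% of all probes were lower and 12.6% higher. The median of the 4 means was -0.41, beside 0.01 for all probes tested. A member had to be detected to enter this count and Lum entered by its ratio, so neither value supports a change of the family.

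**Figure D4:**
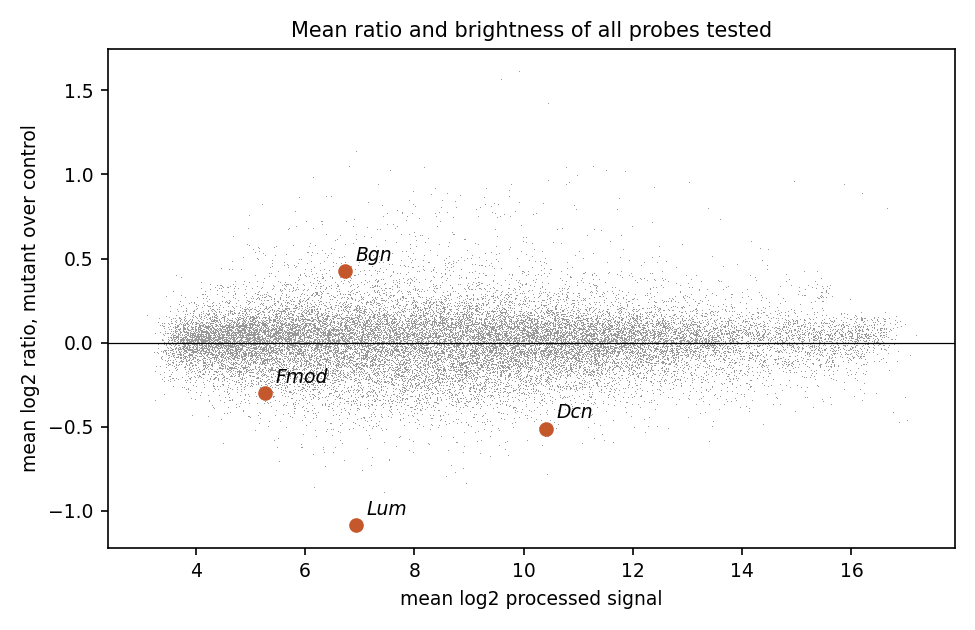
Mean log2 ratio (mutant over control, 4 arrays, as deposited) against mean log2 processed signal for the 25467 probes tested (grey), with the 4 detected members marked. Lum at -1.09 is the lowest point, Dcn and Fmod lie below 0 and Bgn lies above 0.

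Acyp2, which encodes an acylphosphatase, was the next lowest of the probes below 0 on all arrays, with ratios of -0.62, -0.95, -1.11 and -0.90 and a mean of -0.90 ± 0.20 (SD, n = 4). A second Acyp2 probe read -0.16. Clca3a1 followed with a mean of -0.86 ± 0.75 (-0.43 as labelled). Within 500000 bases of the Lum probe there were 8 other probes, of which 2 were tested, Dcn and an unnamed transcript with a mean of -0.09 ± 0.09.

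The likeness of other genes to Lum was measured as the Euclidean distance between their 4 log2 ratios, and it is a description because Lum set the pattern. Acyp2 was nearest at 0.582. Adamts19, of a family of secreted metalloproteases, lay at 0.923 with a mean of -0.66 ± 0.24. Postn, the gene of periostin, a matrix protein of cushion mesenchyme, lay at 0.94 with ratios of -0.50, -1.31, -0.68 and -0.51. Of the 8 cushion genes listed, Postn and Snai2 (-0.16) had means below 0 and 6 had means above 0. Cdk5rap1 lay at 0.968, but the brightest probe of that gene had a mean of -0.09. Fam189a2 lay at 0.971 and Epb42, a red cell membrane protein, at 0.978. As labelled, the means of the 6 genes nearest to Lum lay between -0.20 and 0.19.

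Other genes of the pathway were read from lists of related functions, each gene by its brightest tested probe. None of the genes in them passed the adjusted threshold in either direction (limma), as for all probes. Over all 19606 genes the median of the means was 0.01, 46.5% had a mean below 0, 9.72% were lower on all 4 arrays and 10% were higher on all 4.

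Of 7 other genes of the family, 4 were tested, with 3 means above 0, 1 below and a median of 0.05 (0.03 as labelled). Optc, which encodes opticin, had ratios of -0.02, 0.25, 0.46 and 0.54 and a mean of 0.31 ± 0.25 (SD, n = 4), with -0.19 as labelled. Tsku averaged 0.06, Podnl1 0.04 and Chad, of cartilage, averaged 0.00. Ecm2, Nyx and Podn were not tested because of low signal.

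The enzymes that build chondroitin, dermatan and keratan sulfate chains showed 15 means above 0 and 12 below among 27 of 29 genes tested, with a median of 0.02 (0.01 as labelled). B3gnt2, which extends the sugar chains on which keratan sulfate is built, was the 1 gene lower on all arrays, with a mean of -0.19 ± 0.13. Dse and Dsel, the epimerases that turn chondroitin into dermatan sulfate, averaged 0.10 ± 0.47 and -0.23 ± 0.23. Xylt1 and Xylt2, which start the chains, averaged 0.03 and 0.05.

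The fibrillar and fibril-associated collagens, the main ligands of the family, had 4 means above 0 and 10 below among 14 of 16 genes tested, with a median of -0.08 (-0.04 as labelled). Col27a1 was the 1 gene lower on all arrays, at -0.11 ± 0.05. Col1a1 averaged 0.04 ± 0.27, Col1a2 averaged 0.06 ± 0.16 and Col3a1 averaged -0.19 ± 0.29, with ratios of both signs for each.

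Binding partners and receptors of the family had 8 means above 0 and 12 below among 20 of 21 genes tested, with a median of -0.06 that was 0.02 as labelled. Tgfb3, a TGF-β ligand, averaged -0.26 ± 0.17 and Tgfbr3, its co-receptor, averaged -0.17 ± 0.10, each below 0 on all arrays. Lrp1, an endocytic receptor, averaged 0.25 ± 0.20 and was above 0 on all arrays, with 0.01 on array 1. Other Lrp1 probes were not tested because of low signal. Itgb1, an integrin chain, averaged -0.11 ± 0.04, but its second probe averaged 0.11. Tlr2 and Tlr4 averaged -0.11 ± 0.11 and -0.12 ± 0.18.

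Proteases that act on the family or on procollagen had 2 means above 0 and 6 below among 8 of 12 genes tested, with a median of -0.09 (-0.01 as labelled). Adamts4, an aggrecanase, averaged -0.44 ± 0.15, although its second probe averaged 0.06. Pcolce2, an enhancer of procollagen processing, averaged -0.28 ± 0.08, and Adamts1 averaged 0.13 ± 0.08. Bmp1, which cleaves procollagens and the precursor of biglycan, averaged 0.04 ± 0.19.

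Hyaluronan and the larger proteoglycans of cardiac jelly had 11 means above 0 and 7 below among 18 of 21 genes tested, with a median of 0.02 (-0.01 as labelled). Vcan, the gene of versican, averaged -0.09 ± 0.10, and Has2, the main hyaluronan synthase of the early heart, averaged 0.14 ± 0.17. Sdc2, a cell-surface heparan sulfate proteoglycan, was lower on all arrays at -0.48 ± 0.34, and it averaged 0.26 as labelled. Gpc3 averaged 0.24 ± 0.34, Gpc6 averaged -0.10 ± 0.08 and Hapln1 averaged 0.10 ± 0.10. Hspg2, which encodes perlecan, had a ratio of 1.22 on array 3, the array on which Bgn read 1.38, and its other ratios lay between -0.02 and 0.14.

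**Figure D5:**
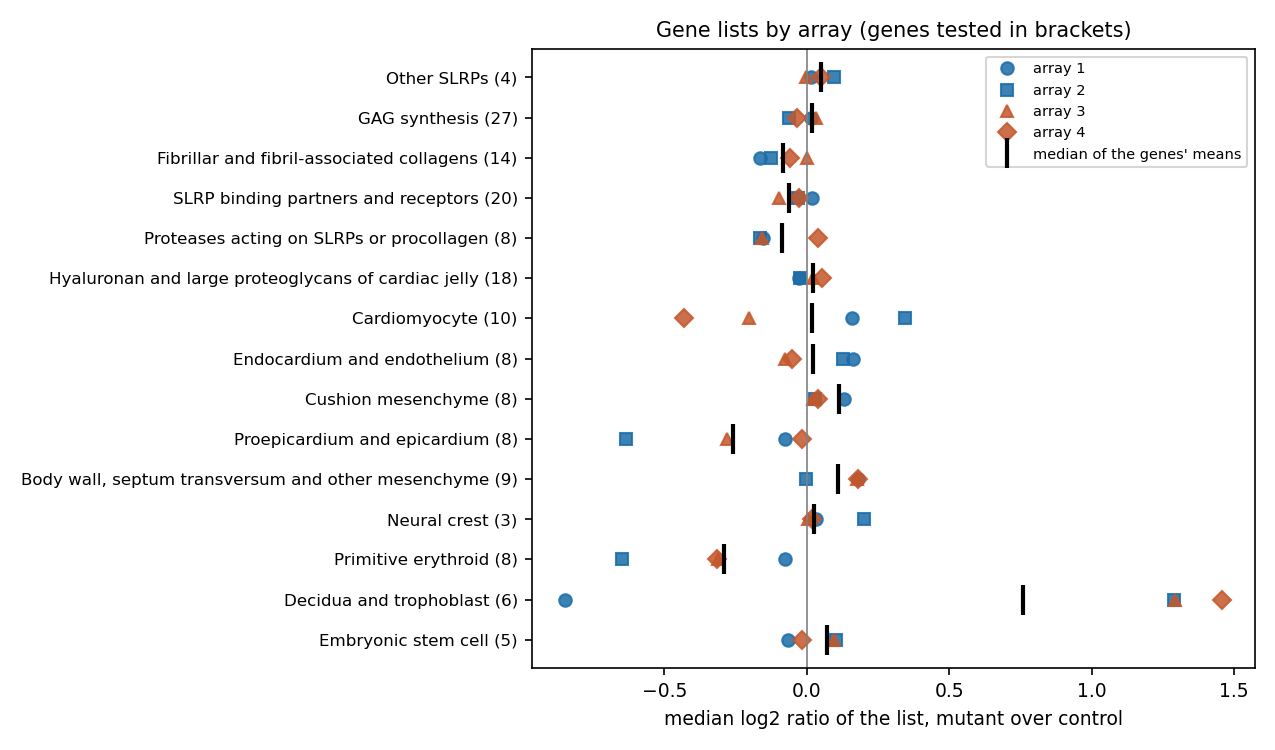
Median log2 ratio (mutant over control, as deposited) of the tested genes of each list on each array (symbols), with the median of the genes' means (black bar). The pathway lists lie close to 0, while the decidua and trophoblast list lies at -0.85 on array 1 and between 1.29 and 1.46 on arrays 2, 3 and 4. On array 1 the mutant signals of Gzme, Gzmf, Gzmg and Cyp11a1 in that list were dim.

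Markers of the cell types that such a dissection could hold differed between arrays. In bulk pools, fewer cells of a type and less RNA per cell cannot be told apart. All 8 primitive erythroid genes had a mean below 0, 4 of them on all arrays, with a median of -0.29. Over all genes tested, 46.5% had a mean below 0 and 9.72% were lower on all 4 arrays. Their summed signal was 149036.6 to 202183.9 in mutant pools, against 209058.7 to 262852 in control pools. These sums did not overlap as deposited, and they overlapped as labelled. Most of this sum was the signal of the globin genes Hbb-bh1 and Hba-x. Hbb-bh1 did not overlap as deposited, with 85265.1 to 116002.2 in mutant pools against 122767.4 to 157901.2 in control pools. Over all probes tested, 0.228% had all mutant signals below all control signals (0.687% as labelled). Hba-x overlapped, with 53326.3 to 80042.1 in mutant pools against 74052.9 to 98237.6 in control pools. On array 1 the deposited ratios of Hbb-bh1 and Hba-x were 0.22 and 0.24. The 8 proepicardial and epicardial genes, which mark cells of the outer layer of the heart, had 7 means below 0. Their median was -0.26, or -0.11 without array 2, and -0.08, -0.64, -0.28 and -0.02 by array. Their summed signals were 7525.8 to 11510.3 in mutant pools against 8502.1 to 11728.1 in control pools. Most of each epicardial sum was Krt19, with a mean ratio of 0.14, and Wt1, with -0.17. As labelled, the list medians were 0.01 for the erythroid and -0.10 for the epicardial genes. Their part in the Lum, Dcn and Fmod values was not tested.

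The decidua and trophoblast genes, which mark tissue from outside the embryo, were tested for 6 of 10 genes. Gzmd, Prl3c1 and Tpbpa were not tested because of low signal, and Prl2c2 was not matched on the array. The list medians were -0.85 on array 1 and 1.29, 1.29 and 1.46 on arrays 2, 3 and 4. The array 1 value rests largely on dim signals. The mutant pool of array 1 read 1.73 for Gzmf, 4.99 for Gzmg, 5.15 for Gzme and 6.09 for Cyp11a1. Each of these was well above background in 3 of 4 mutant channels, with its lowest signal on array 1. Summed signals of the list were 572.3 to 5920.4 in mutant pools against 1585.2 to 5204 in control pools. The median of the genes' means was 0.76 as deposited and -0.54 as labelled. On array 2 the list median was above 0, while the summed signal was 3354.1 in the mutant pool against 5204 in the control pool. Prl8a2 was most of both sums, with 2169.8 and 4872.2 and a ratio of -1.17. The other tested genes of the list had ratios of 0.79 to 2.14 on that array. Lum read -1.17, -1.11, -1.22 and -0.84 on arrays 1 to 4. The part of the decidua and trophoblast genes in the Lum values was not tested.

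The cardiomyocyte genes had medians of 0.16 and 0.34 on arrays 1 and 2 and -0.20 and -0.43 on arrays 3 and 4, with summed signals of 767128.2 to 1063546.9 in mutant pools against 692738.4 to 1093879.3 in control pools. The median of their means was 0.02 as deposited and 0.27 as labelled. Among mesenchymal lists, the 8 cushion genes had a median of 0.11 with 6 means above 0 and summed signals of 3807.2 to 6062.6 in mutant pools against 3766.8 to 6169.3 in control pools. The body wall and septum transversum genes had a median of 0.11, with 9 of 10 tested, all but Dpt. Their sums were 10627.2 to 18282.3 in mutant pools against 11188.9 to 15661.2 in control pools. Most of each sum was Prrx2, with 8580.1 to 15939.3 in mutant pools against 9381.4 to 13672.4 in control pools. As labelled, the cushion and body wall medians both became -0.02. The endocardial and endothelial median was 0.02 over 8 of 8 genes, with sums of 8146.4 to 14363.9 in mutant pools against 7305 to 15600.1 in control pools. The neural crest median was 0.03 over the 3 genes tested, with sums of 309.6 to 480.3 in mutant pools against 306.2 to 500.9 in control pools. The embryonic stem cell median was 0.07 over 5 genes (-0.02 as labelled), with sums of 1092.1 to 1752.1 in mutant pools against 1101.8 to 1707.6 in control pools. Their part in the values of the members was not tested.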

How the data were processed

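The 4 pairs of pools were measured on 1 slide of two-colour Agilent arrays with 1 scan time. The scanner output gives, per the file headers, mean and background intensity per spot, processed signal intensity (background-subtracted and dye-normalized by the software) and the log10 ratio of Cy5 over Cy3 from Feature Extraction 11.5.1.1. Version 8.5.1.1 is given in the submitters' processing notes. The authors' deposited table holds log2 ratios in columns named mutant over wild type, with column medians of -0.03, -0.02, 0.02 and 0.02. Their scale followed log2 of the scanner ratio (slopes of 1.01 in size), and no source used here names the normalization. All 43173 rows were matched to scanner spots by row order and agreed in probe name, and 153 were controls.

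Flagged outlier spots (230 to 327 per array) were left out, repeat spots were averaged, and 0 spots were saturated. A probe was tested when either group's channel was well above background on every array, with at least 50% of its spots above, which kept 25467 of 39429 probes. In R 4.3.3 with limma 3.58.1, lmFit and eBayes tested the ratios against 0, after the step had been tested on simulated data. Channels share an array, so each ratio holds its pair. A gene on several probes was represented by its brightest tested probe. Names came from a RefSeq table of assembly GRCm38.p6 by accession for 27508 probes, by symbol for 3544 and by older symbol for 404, and 7973 kept the file's name. The RefSeq promoter table was not used, as it lists neither Lum nor Dcn.

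The members, lists and alternatives were chosen with earlier results of these data known. Named genes are the 10 members, the other genes of the family, up to 4 genes per list with the largest mean among those of 1 sign on all arrays, and the 6 genes nearest to Lum. Clca3a1 was named for its low mean. Further list genes were named after their values were seen, namely Actc1, Tnnt2, Nanog, Utf1, Dppa5a, Hbb-bh1, Hba-x, Prl8a2, Gzme, Gzmf, Gzmg, Cyp11a1, Tie1, Krt19, Wt1, Meox1, Thy1, Prrx1, Prrx2, Foxf1, Dse, Dsel, Xylt1, Xylt2, Col1a1, Col1a2, Col3a1, Tlr2, Tlr4, Bmp1, Vcan, Has2 and Hspg2. Alternatives covered scanner normalization, dye direction, filters, centring, array weights, pairing and leaving out each array. The number of arrays limits the precision.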

Additional observations from a re-analysis of the deposited data

Results flagged for a closer look

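In 27 series of 4 values, the gap between the highest or lowest array and its nearest neighbour was set against the whole range. By this rule 5 series had an array far from the others. The cut-off would flag about 1 in 20 of independent series of normally distributed values. These series share the same 4 arrays, so their count cannot be set against that rate. The mutant signal of Bgn was 300.3 on array 3, against 81.8 to 107.4 in the other mutant pools. The median log2 ratio of the proteases was 0.0385 on array 4, above -0.15 to -0.16 on the others. The body wall and septum transversum median was -0.001 on array 2, with 0.18 on each of the others. The neural crest median, over 3 genes, was 0.20 on array 2, above 0.00 to 0.03 on the others. The decidua and trophoblast median was -0.85 on array 1, below 1.29 to 1.46 on the others. On array 1 the mutant signals of Gzme, Gzmf, Gzmg and Cyp11a1 in that list were in the range of the members not detected. Prl8a2 in the same list had ratios of -3.13, -1.17, 1.75 and 2.04.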

How the results depend on the processing

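The mean log2 ratio of Lum was -1.09 as deposited, -0.81 after normexp and loess of the scanner intensities, -1.33 from the scanner software's ratio and -0.054 with all arrays as labelled, and lay between -1.17 and -1.04 when each array was left out. Probes higher after adjustment numbered 0 in the deposited ratios, 12 as labelled, 17 with arrays 1 and 2 only, 3 with array weights and 0 to 4 when each array was left out, the 4 without array 1. Probes lower numbered 0, 2 with arrays 1 and 2, 2 with array weights and 0 to 0 when each array was left out. At an unadjusted p below 0.05, the 930 higher and 1243 lower probes became 1752 and 1743 as labelled, 3335 and 3426 with arrays 1 and 2, 1708 and 2070 with a dye term, and 3103 and 3031 with array weights. Comparing channels with no replicate block, without the pairing by array, gave 397 and 399. That setting used renormalized scanner intensities of each channel in place of the deposited ratios, so normalization changed along with the pairing. Leaving out array 1 gave 819 lower probes. The mean of Bgn turned to -0.47 as labelled. Of 15 list medians, 7 changed sign as labelled, 2 without the filter, 1 with scanner loess, and 1, 3 and 2 without arrays 1, 2 and 3. The causes were not tested. Dim probes limit what can be said of 6 members, and the offset of 50 in normexp draws dim ratios towards 0.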

Other observations

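Some cell type markers outside the proteoglycan family were of 1 sign on all 4 arrays as deposited, though none passed the adjusted threshold (limma, over 25467 probes). Of all genes tested, 9.72% were lower and 10% higher on all 4 arrays. The 8 endocardial and endothelial genes had 4 means above 0 and 4 below. Nfatc1, a transcription factor of the valve-forming endocardium, averaged 0.34 ± 0.13 (SD, n = 4), with 0.48 for its second probe, and 0.01 as labelled. Cdh5, an endothelial cadherin, averaged 0.24 ± 0.21 (-0.03 as labelled) and Tie1 averaged 0.22 ± 0.19 (-0.10 as labelled). Tek, a receptor of the same family as Tie1, averaged -0.36 ± 0.50 (0.35 as labelled), and Emcn, which encodes endomucin, averaged -0.24 ± 0.20 (0.14 as labelled).

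The body wall and septum transversum genes had 5 means above 0 and 4 below. Lhx2, a transcription factor of septum transversum mesenchyme, averaged 0.61 ± 0.21 (0.14 as labelled). Twist2 averaged 0.27 ± 0.13 (0.05 as labelled) and Osr1 averaged 0.25 ± 0.14 (0.03 as labelled). Meox1, Thy1, Prrx1 and Foxf1 averaged -0.24, -0.15, -0.09 and -0.04, with ratios of both signs for each. In the epicardial list, Upk1b averaged -0.52 ± 0.35 (-0.07 as labelled) and Tcf21 averaged -0.42 ± 0.29 (0.02 as labelled). Among the red cell genes, Rhag averaged -0.63 ± 0.29 (-0.03 as labelled) and Epb42 averaged -0.70 ± 0.35 (0.14 as labelled), and a second Epb42 probe was not well above background.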
